A study of Mus musculus with 2 samples.

Results

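This account covers 10 mouse genes of prostaglandin synthesis, inactivation and reception (Ptgs1, Ptgs2, Ptges, Ptges2, Ptges3, Ptgis, Ptgds, Hpgd, Ptger2 and Ptger4) out of the 23176 genes in the authors' table. They were taken by symbol, all 10 were listed, and 9 of them had a test among the 12740 genes tested. The genes were chosen by their FPKM in both lines and the authors' q, so what follows on that difference describes it and carries no test beyond the one the authors deposited. Polyadenylated RNA was sequenced from a pair of embryonic day 14 striatal cell lines of 129SvEv/CD1 background, used below passage 15. STHdhQ7 carries the huntingtin alleles labelled HdhQ7/Q7, and STHdhQ111 carries those labelled HdhQ111/Q111, the expanded polyglutamine form. Cultures of both lines grew at 33 °C and were held at 39 °C for 2 days before use to stop division. Each genotype is 1 line, so genotype and line history cannot be told apart. The sample titles name 3 replicates per line, but the table holds 1 combined FPKM (fragments counted per transcript length and per library size) per line, so no replicate spread can be shown, and the depth is unknown. In such bulk RNA, fewer cells expressing a gene and less RNA of it per cell cannot be told apart.

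Prostaglandins are short-lived lipid signals made from arachidonic acid that phospholipases free from membranes. The cyclooxygenases Ptgs1 (COX-1) and Ptgs2 (COX-2) convert it to prostaglandin H2, and terminal synthases turn that intermediate into prostaglandin E2 (Ptges, and by reported activity Ptges2 and Ptges3), prostacyclin (Ptgis) or prostaglandin D2 (Ptgds). The dehydrogenase Hpgd begins their inactivation, and Ptger2 and Ptger4 encode the EP2 and EP4 receptors, which raise cyclic AMP in response to prostaglandin E2. In brain the pathway is known for fever, pain, blood flow and inflammatory responses, and Ptgds is known for its abundance in the leptomeninges.

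Of the 10 genes, 3 were higher in STHdhQ111 at the authors' q of 0.05 or less (Ptges, Ptgis and Hpgd), 3 were lower (Ptgs1, Ptgds and Ptger4), 3 were tested and not called (Ptgs2, Ptges2 and Ptges3) and Ptger2 had no test. Called here means a q of 0.05 or less in the authors' deposited table, a rule that called 13.5% of all tested genes in either direction, 6.35% as higher and 7.17% as lower. Since the genes were chosen with this contrast known, nothing is read from their share. On the scale of log2(FPKM + 0.5) the difference, STHdhQ111 minus STHdhQ7, had a median of -0.17 over the 9 tested genes against -0.05 over all tested genes. With genes called in both directions, that median is the value of an uncalled gene, Ptges3.

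**Figure D1:**
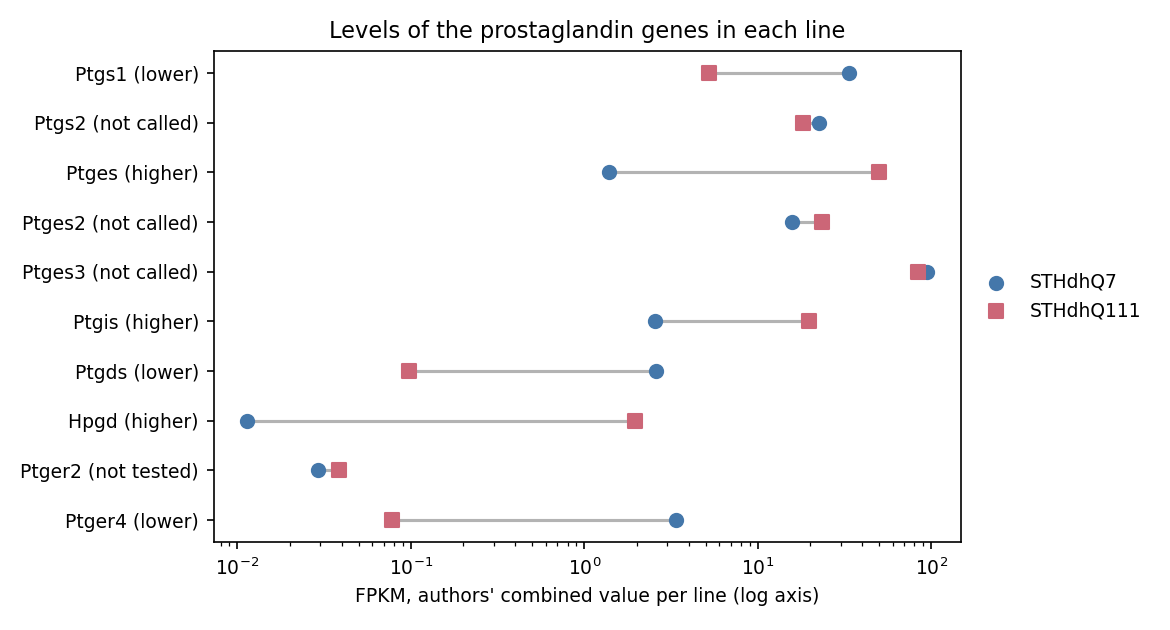
FPKM of each of the 10 genes (authors' combined value, log axis) in STHdhQ7 (circles) and STHdhQ111 (squares), with the authors' call beside the symbol. Ptges moves from 1.38 to 50.3 FPKM and Ptgs1 from 33.5 to 5.25 FPKM, while Ptgs2, Ptges2 and Ptges3 each differ less between the lines.

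The constitutive cyclooxygenase was lower in STHdhQ111 and the inducible one was not called. Ptgs1 (chromosome 2, 36085946 to 36107789 on mm9), which makes prostaglandin H2 in resting cells, stood at 33.5 FPKM in STHdhQ7 cells and at 5.25 FPKM in STHdhQ111 cells. It fell 6.38-fold, from a level above 81.1% of tested genes to one above 36.2%. The authors' deposited table gave Ptgs1 a log2 fold change of -2.67 (implied standard error 0.43, interval -3.52 to -1.82, q = 3.26e-08). Implied errors are the authors' log2 fold change divided by their test statistic, and intervals are the 95% intervals these errors give. Ptgs2 (chromosome 1, 151947254 to 151955142), the isoform that cytokines and growth factors induce, stood at 22.5 and 18.2 FPKM. For Ptgs2 the authors' deposited table gave -0.30 on the log2 scale (interval -1.15 to 0.54, q = 0.878). FPKM is scaled to length, so the levels of both genes can be set beside each other within a line. Ptgs1 made up 59.8% of their summed FPKM in STHdhQ7 and 22.4% in STHdhQ111, and the sum was 55.99 FPKM in the first line and 23.5 FPKM in the second. With no spread given, which of the genes had the higher level in a line cannot be settled.

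The prostaglandin E synthases differed from each other. Ptges (chromosome 2, 30744991 to 30758817) encodes the inducible microsomal synthase, a small membrane enzyme that acts downstream of both cyclooxygenases. Its level was 1.38 FPKM in STHdhQ7 against 50.3 FPKM in STHdhQ111, the largest rise of the 10 genes in log2(FPKM + 0.5), at 4.75. That is 36.3-fold higher, and its place among the tested genes moved from above 14.2% of them to above 87.7%. Ptges had a log2 fold change of 5.18 in the authors' deposited table (implied standard error 0.45, interval 4.30 to 6.07), with q printed as 0. Ptges2 (chromosome 2, 32251410 to 32258260), the membrane-associated form expressed in most tissues, stood at 15.8 FPKM in STHdhQ7 and at 23.3 FPKM in STHdhQ111. For Ptges2 the log2 value in the authors' deposited table was 0.56 (interval -0.23 to 1.36, q = 0.537). Ptges3 (chromosome 10, 127496038 to 127514310) encodes p23, a cochaperone of Hsp90 to which cytosolic synthase activity has also been ascribed. It was the most abundant of the 10 genes in both lines, at 94.0 and 83.6 FPKM, and its q in the authors' deposited table was 0.947. Only 79.8% of the words of 36 bases in Ptges3 transcripts occurred in no other gene's transcripts, the pseudogene Ptges3-ps among those sharing them, so its level is uncertain. Ptges held 8.05% of the summed FPKM of Ptges and Ptges2 in STHdhQ7 and 68.3% in STHdhQ111. Its level was 16.3-fold below that of Ptgs2 in STHdhQ7 and 2.76-fold above it in STHdhQ111.

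**Figure D2:**
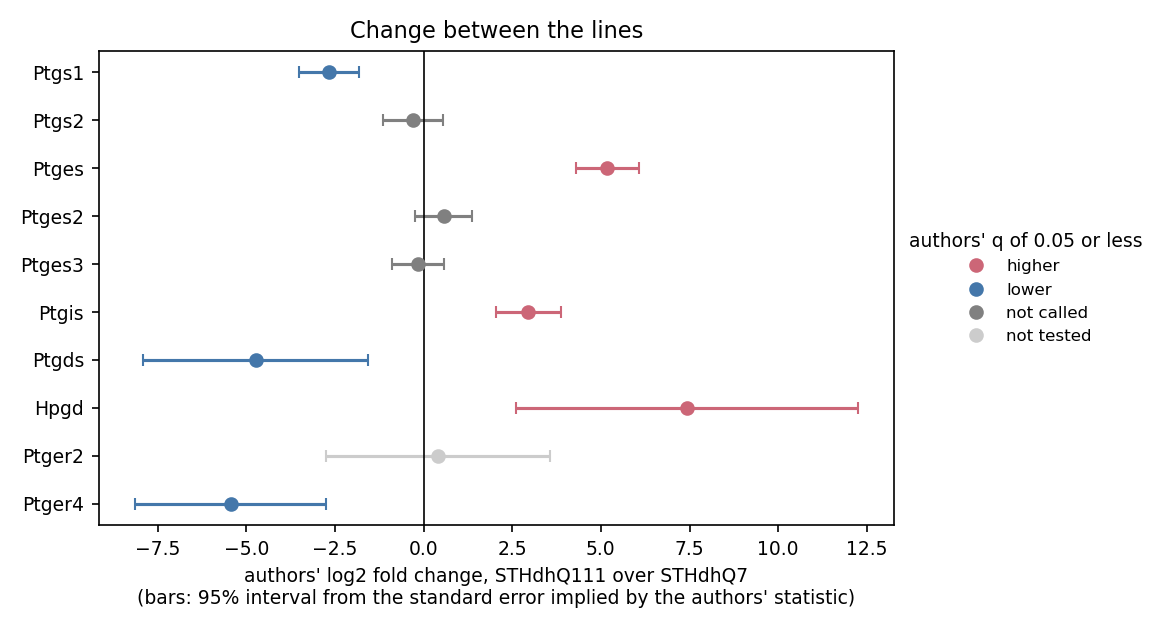
Authors' log2 fold change of each gene, STHdhQ111 over STHdhQ7, with bars for the 95% interval from the implied standard error and colours for the authors' call. The intervals of Ptges (4.30 to 6.07) and Ptgis (2.03 to 3.87) lie above 0 and are narrow beside that of Hpgd (2.61 to 12.2), which rests on a value near 0 in STHdhQ7.

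The synthases of prostacyclin and prostaglandin D2 went in opposite directions. Ptgis (chromosome 2, 167028696 to 167066037), a cytochrome P450 family enzyme known from endothelium and smooth muscle, stood at 2.55 FPKM in STHdhQ7 and at 19.7 FPKM in STHdhQ111, 7.73-fold higher. Ptgis had a log2 fold change of 2.95 in the authors' deposited table (implied standard error 0.47, interval 2.03 to 3.87, q = 1.38e-08). In STHdhQ111 Ptgis stood at 1.08 times the FPKM of Ptgs2, and in STHdhQ7 8.82-fold below it. Ptgds (chromosome 2, 25322232 to 25325269), a secreted lipocalin that also carries small lipids, stood at 2.58 FPKM in STHdhQ7 and at 0.0971 FPKM in STHdhQ111, 26.6-fold lower. The authors' deposited table gave Ptgds -4.73 on the log2 scale, with a wide interval of -7.90 to -1.56 and q = 0.0288. In log2(FPKM + 0.5), which damps values near 0, its change was -2.37.

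The first enzyme of prostaglandin inactivation was listed near 0 in STHdhQ7 and higher in STHdhQ111. Hpgd (chromosome 8, 58773349 to 58799843) oxidises the 15-hydroxyl group that prostaglandin receptors recognise. Its level was 0.0114 FPKM in STHdhQ7 against 1.961 FPKM in STHdhQ111, in the second line lay above 19.5% of tested genes. Hpgd had a log2 fold change of 7.42 in the authors' deposited table (interval 2.61 to 12.2, q = 0.0226), and its change in log2(FPKM + 0.5) was 2.27. Both Hpgd and Ptgds missed a stricter q of 0.01, a rule that called 9.61% of tested genes, while the other 4 called genes passed it. All 6 were called at a q of 0.1 (16.1% of tested genes), after adjustment over genes with 1 FPKM or more in either line (13.5%) and with an added 4-fold minimum in FPKM + 0.5 (5%). In STHdhQ111 the level of Ptges was 25.6 times that of Hpgd.

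Both cyclic AMP-raising prostaglandin E2 receptors were low in STHdhQ111. Ptger4 (chromosome 15, 5183404 to 5193831), which encodes EP4, stood at 3.38 FPKM in STHdhQ7 and at 0.0777 FPKM in STHdhQ111, 43.5-fold lower. Ptger4 had a log2 fold change of -5.44 in the authors' deposited table (interval -8.14 to -2.74, q = 0.00123), and its change in log2(FPKM + 0.5) was -2.75. Of the words in Ptger4 transcripts, 85.0% occurred in no other gene's transcripts, and the neighbouring Ttc33 was among the genes sharing the rest. Ptger2 (chromosome 14, 45607786 to 45623495), which encodes EP2, stood at 0.0291 and 0.0386 FPKM and had no test. The line with the higher level of the prostaglandin E synthase Ptges was thus the line with the lower level of Ptger4.

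The order of the genes by level differed between the lines. In STHdhQ7 it ran from Ptges3 through Ptgs1, Ptgs2, Ptges2, Ptger4, Ptgds, Ptgis, Ptges and Ptger2 to Hpgd. In STHdhQ111 it ran from Ptges3 through Ptges, Ptges2, Ptgis, Ptgs2, Ptgs1, Hpgd, Ptgds and Ptger4 to Ptger2. Ptges moved from rank 8 to rank 2 and Ptgs1 from rank 2 to rank 6. With 1 value per line no spread is given, so neighbours in either order cannot be told apart.

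Upstream sequences are shown for 4 genes, because the cyclooxygenases share a reaction but not their difference between the lines, and because Ptges and Ptger4 had the largest rise and the largest fall in log2(FPKM + 0.5) (by the authors' log2 fold change Hpgd rose most). Each line gives the 250 bases before the RefSeq transcript start on GRCm38.p6, 5′ to 3′ on the gene's strand, at chr2:36230176-36230425 (Ptgs1, plus strand), chr1:150099781-150100030 (Ptgs2, plus), chr2:30903298-30903547 (Ptges, minus) and chr15:5244188-5244437 (Ptger4, minus). Capitals mark matches, on either strand, to any of the 6 motifs searched.
Ptgs1: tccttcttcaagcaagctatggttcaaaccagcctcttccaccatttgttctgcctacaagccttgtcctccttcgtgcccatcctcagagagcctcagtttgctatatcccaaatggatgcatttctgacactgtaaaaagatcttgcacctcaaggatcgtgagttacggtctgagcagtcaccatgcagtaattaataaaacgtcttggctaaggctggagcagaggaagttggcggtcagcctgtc
Ptgs2: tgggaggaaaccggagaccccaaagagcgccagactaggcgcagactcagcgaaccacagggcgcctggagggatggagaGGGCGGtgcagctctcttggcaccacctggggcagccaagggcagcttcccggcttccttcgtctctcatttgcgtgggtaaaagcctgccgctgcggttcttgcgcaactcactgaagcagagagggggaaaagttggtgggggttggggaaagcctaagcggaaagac
Ptges: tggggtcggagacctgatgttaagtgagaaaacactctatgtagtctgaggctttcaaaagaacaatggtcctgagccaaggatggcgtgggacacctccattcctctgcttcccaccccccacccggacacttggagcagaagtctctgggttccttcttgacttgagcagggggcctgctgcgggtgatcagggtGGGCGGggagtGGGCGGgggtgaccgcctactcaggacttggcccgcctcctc
Ptger4: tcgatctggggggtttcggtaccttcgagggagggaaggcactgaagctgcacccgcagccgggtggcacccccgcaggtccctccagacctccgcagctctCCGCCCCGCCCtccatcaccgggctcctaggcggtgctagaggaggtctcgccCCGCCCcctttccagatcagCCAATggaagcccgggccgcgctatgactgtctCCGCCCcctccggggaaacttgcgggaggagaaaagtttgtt

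The motif TATAAA stands for the TATA box, and CCAAT is the box bound by nuclear factor Y. The GC box, read by Sp1 and Egr1 family factors, was searched as GGGCGG, and the cyclic AMP response element as TGACGTCA. The E-box was searched as CACGTG and part of an NF-kappaB site as GGGACTTTC. RefSeq windows were found for 9 of the 10 genes, all but Ptgis. In Ptges the GC box occurred at 53 to 48 and at 42 to 37 bases before the start, a pair on the same strand. Egr1, an immediate early factor known to act at GC boxes of the Ptges promoter, had 53.1 FPKM in STHdhQ7 and 38.2 FPKM in STHdhQ111, not a called difference. Ptger4 held 4 GC boxes on the opposite strand, the first pair overlapping by a base, and a CCAAT box at 75 to 71. Ptgs2 held 1 GC box at 170 to 165, and Ptgs1 held none of the 6 motifs. The GC box was found in 5 of the 9 windows (Ptgs2, Ptges, Ptges3, Hpgd and Ptger4) and in 32.7% of all 32851 RefSeq windows of the same length. CACGTG occurred in Ptges2 (6.02% of all windows) and CCAAT in Ptger2 and Ptger4 (33.8%). TATAAA (12.4% of all windows), TGACGTCA (1.55%) and GGGACTTTC (0.289%) were in none of the 9. A match is a run of letters and not a measured binding site.

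CpG dinucleotides, the usual target of DNA methylation and the subject of the series title, also differed among these windows. Ptges3 held 38 in 250 bases, more than 98.1% of all windows, and Ptger4 held 19. Ptges2 held 15, Ptgs2 13, Hpgd 9 and Ptges 8. Ptgs1 held 5, Ptger2 3 and Ptgds 2, below the median of 6 over all windows. The 3 genes called lower thus ranged from 2 to 19 CpG, and the called higher Ptges and Hpgd had 8 and 9. Methylation of these sites was not measured in the table.

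Position on the chromosome was examined because 5 of the 10 genes lie on chromosome 2 (Ptgds, Ptges, Ptges2, Ptgs1 and Ptgis), 4 of them called, and in both directions. Chromosome 2 held 1008 of the 12740 tested genes, and since the 10 genes were chosen, nothing is read from their share there. For each of the 6 called genes the 3 nearest tested genes on each side were taken, 36 in all, and 2 of these were called, against 13.5% of all tested genes. Around Ptges, all 6 neighbours lay within 69.5 kb of it and had log2 ratios from -0.12 to 0.47. The nearest was the homeobox gene Prrx2, 8.22 kb away with 73.9 FPKM in STHdhQ7 against 97.5 FPKM in STHdhQ111 and q = 0.745 in the authors' deposited table. The 6 neighbours of Ptgs1 lay up to 1173 kb away and ranged from -0.38 to 0.28. Those of Ptgds lay within 48.2 kb and ranged from -0.68 to 0.24, and no neighbour of either gene was called. None of the 6 neighbours of Ptgis was called either. Of these, Snord12, a small nucleolar RNA inside a host locus, was listed at 7.27 FPKM in STHdhQ7 and at 0 in STHdhQ111. The called neighbours were Neil3, a DNA repair glycosylase 4049 kb from Hpgd and lower in STHdhQ111 where Hpgd was higher, and Osmr, the oncostatin M receptor 1570 kb from Ptger4 and higher where Ptger4 was lower. Both were thus called in the direction opposite to the gene they were listed for, from which they lie 4049 and 1570 kb away.

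**Figure D3:**
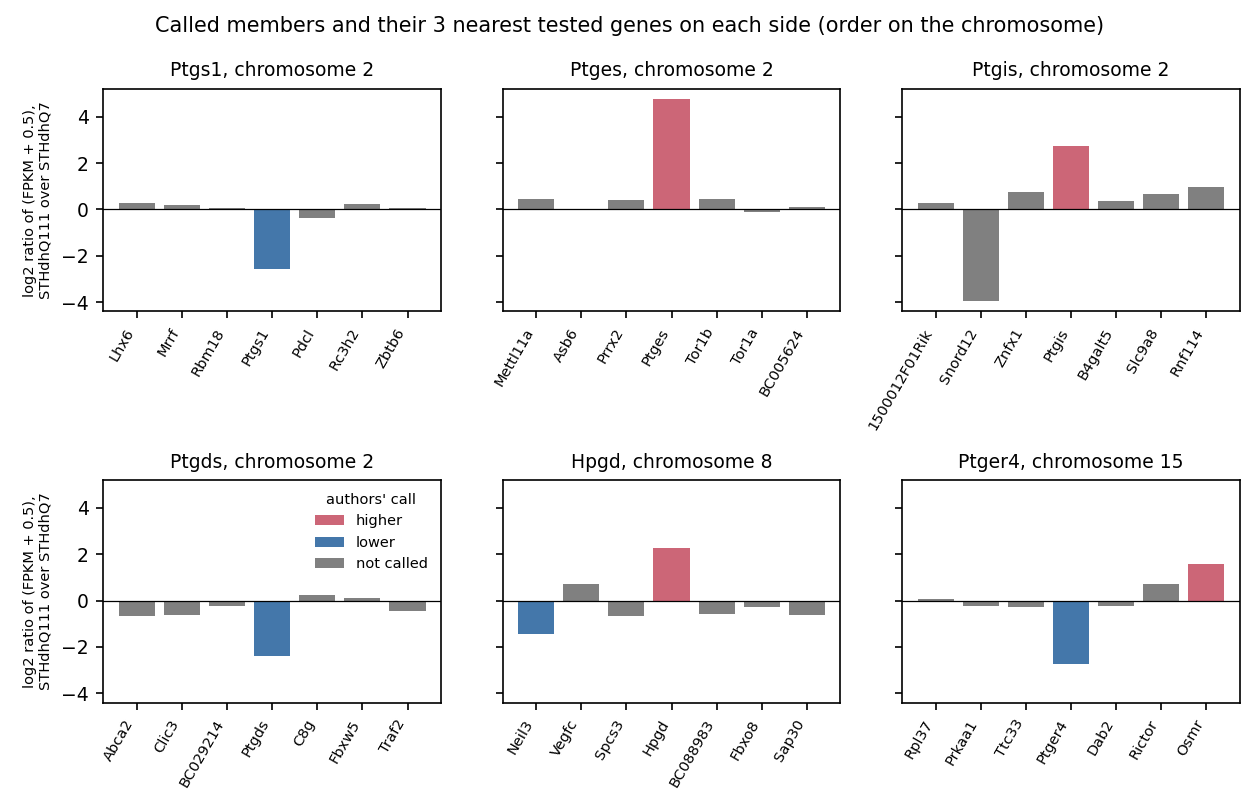
Log2 ratio of (FPKM + 0.5), STHdhQ111 over STHdhQ7, for each of the 6 called genes (middle bar) and the 3 nearest tested genes on each side in chromosome order, coloured by the authors' call. The bar of Ptges (4.75) stands among neighbours between -0.12 and 0.47, and Neil3 and Osmr are the coloured neighbours.

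Genes around the 10 in the same pathway were taken as 9 lists. In the list of prostaglandin carriers and inactivating reductases, 2 of 6 tested genes were higher in STHdhQ111 and 1 was lower. The share called was 50%, against 13.5% of all tested genes, and the median log2 ratio of (FPKM + 0.5) was 0.81. Ptgr2, a reductase acting on the 15-keto products that Hpgd makes, rose from 0.317 to 11.1 FPKM, 35.1-fold. Of the words in Ptgr2 transcripts, 68.8% occurred in no other gene's transcripts, so its level is uncertain. Slco2a1, the carrier that takes prostaglandins into cells before Hpgd acts, rose from 0.135 to 1.37 FPKM. Ptgr1, a further reductase that also acts on leukotriene B4, fell from 55.8 to 24.5 FPKM with a q of 0.0182 in the authors' deposited table. Abcc4, an exporter of prostaglandins and cyclic nucleotides, went uncalled at 2.13 and 5.12 FPKM (q = 0.0518 in the authors' deposited table). Zadh2 (10.3 and 15.2 FPKM) and the carrier Slco3a1 (7.05 and 4.805 FPKM) were not called either. Hpgd, Ptgr2 and Slco2a1 were thus all called higher, although from under 0.5 FPKM in STHdhQ7, while the more abundant Ptgr1 was called lower. The summed FPKM of the list's 6 genes was 75.7 in STHdhQ7 and 62.1 in STHdhQ111.

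Other terminal enzymes and receptors were counted next, beside the 13.5% of all tested genes called. Of 11 other prostanoid synthases and ketoreductases, 7 were tested and 1 was called (14.3%), with a median of 0.25. Akr1c18, a reductase of prostaglandins and progesterone, was listed at 1.36 FPKM in STHdhQ7 and at 0 in STHdhQ111, with q = 0.00288 in the authors' deposited table. The carbonyl reductase Cbr2 was the most abundant at 154.6 and 167.0 FPKM, and Cbr1 (30.5 and 30.2 FPKM) and Akr1b8 (37.1 and 49.4 FPKM) were not called either. Neither the thromboxane synthase Tbxas1 (0.0246 and 0 FPKM) nor the second prostaglandin D synthase Hpgds (0.0446 and 0.0596 FPKM) had a test. Of 8 other receptor genes 4 were tested, with a median of 0.20, and 1 was called (25%), the prostaglandin F receptor Ptgfr. It rose from 0.571 to 1.89 FPKM with a q of 0.0350 in the authors' deposited table. Ptger1, the EP1 receptor that acts through calcium, went uncalled at 13.9 and 21.4 FPKM. Its locus overlaps that of 1 other gene and no strand marking is described, so its level is uncertain. Ptger3, the EP3 receptor (0.249 and 0.00874 FPKM), had no test. The prostacyclin receptor Ptgir had 1.29 and 1.06 FPKM and Ptgfrn, a regulator of the prostaglandin F receptor, 29.1 and 21.7 FPKM, neither called.

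Genes upstream, in the supply of arachidonate, were called at a share of 13.3% for release and 7.69% for re-esterification, near or below that of all tested genes. Of 15 tested genes of release 1 was higher and 1 lower, with a median of -0.26. Pla2r1, a receptor of secreted phospholipases, rose from 0.124 to 1.58 FPKM, and Faah, which hydrolyses the endocannabinoid anandamide, fell from 1.62 to 0.426 FPKM. The most abundant uncalled members were Abhd12 (25.4 and 40.9 FPKM), Pla2g12a (29.2 and 31.2 FPKM) and Pla2g15 (19.6 and 28.6 FPKM). Of 13 tested genes that activate and re-esterify arachidonate, Lpcat2 alone was called, from 0.190 to 0.942 FPKM, and the median was -0.26. Lpcat3 (27.9 and 52.9 FPKM), Agpat3 (29.0 and 24.1 FPKM) and Mboat7 (18.6 and 20.4 FPKM) were not called. The loci of Lpcat2, Lpcat3, Gnas and Celf2 each overlap that of 1 other gene, so their reads may not all be their own.

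Sister branches and the response side were also described. The lipoxygenase, leukotriene and epoxide branch was taken with the membrane protein family to which Ptges belongs (MAPEG). Among their 14 tested genes 2 were higher and 2 lower, with a median of 0.12. The share called was 28.6%, against 13.5% of all tested genes. Mgst2, a relative of Ptges in that family, rose from 15.2 to 51.5 FPKM, while its relative Mgst1 (22.3 and 27.9 FPKM) was not called. Ggt5, which processes leukotriene C4, rose from 0.0250 to 0.533 FPKM. The cytochrome P450 gene Cyp2j9 fell from 2.15 to 0.149 FPKM, as did its relative Cyp2j6 from 8.82 to 3.37 FPKM. Ephx1 (746.6 and 439.6 FPKM) and Lta4h (41.9 and 31.4 FPKM) were not called. Of 12 tested genes for the stimulatory G protein, adenylyl cyclases, arrestins and receptor kinases, Adcy8 alone was called (8.33%). It fell from 0.518 to 0.0836 FPKM, and the median was -0.07. Gnas, which couples EP2 and EP4 to cyclic AMP, had 610.1 and 574.8 FPKM, and Adcy6 (38.8 and 36.7 FPKM) and Adrbk1 (27.2 and 22.96 FPKM) were not called.

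Known regulators of Ptgs2 and Ptges held 4 genes called higher and 1 lower of 27 tested, with a median of 0.18. That is a share of 18.5%, against 13.5% of all tested genes. Il1rn, the interleukin-1 receptor antagonist, rose from 0.895 to 49.2 FPKM, 55.0-fold. Cebpa rose from 5.58 to 14.5 FPKM, the tumour necrosis factor receptor Tnfrsf1a from 45.3 to 103.8 FPKM and the receptor adaptor Myd88 from 16.2 to 37.4 FPKM. Celf2, an RNA-binding protein that binds the Ptgs2 message, fell from 12.2 to 3.79 FPKM. Anxa1 (407.0 and 271.9 FPKM), Cebpb (100.03 and 186.1 FPKM) and Zfp36l1 (67.8 and 88.5 FPKM) were not called. The inducing cytokines had no test: Il1a was listed at 0.0124 and 0.0305 FPKM, Il1b at 0 and 0.0156 FPKM, Tnf at 0 in both lines and Il6 at 0.340 and 0.374 FPKM. None of the 16 tested Hsp90 genes and cochaperones, the partners of the protein Ptges3 encodes, was called. Their log2 ratios ranged from -0.67 to -0.03 with a median of -0.24, smaller in size than their median implied standard error of 0.40. Of the 16, 15 stayed below 0 once ratios were centred on the median expressed gene. Before centring, 6949 of all 12740 tested genes lay below 0. Hspa8 was listed at 1429 and 1224 FPKM, Hsp90ab1 at 1036 and 881.6 FPKM and Hsp90b1 at 580.3 and 364.7 FPKM.

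**Figure D4:**
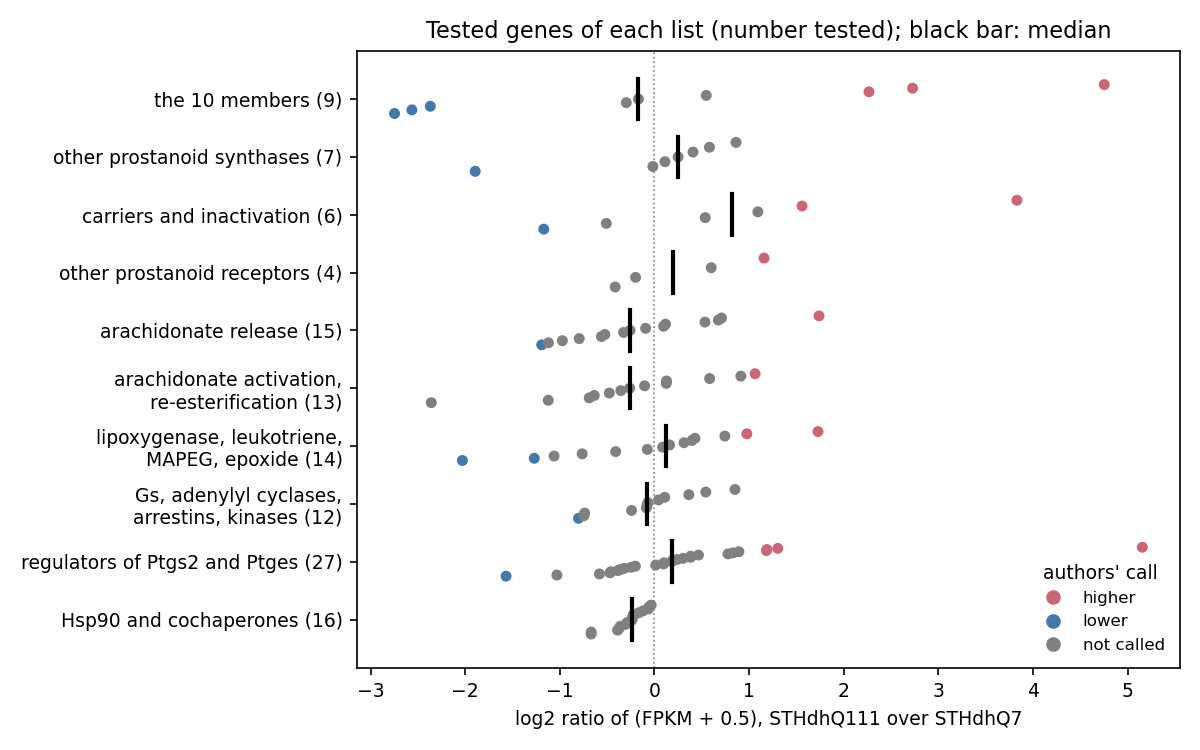
Log2 ratio of (FPKM + 0.5), STHdhQ111 over STHdhQ7, for every tested gene of the 10 described genes and of each of the 9 pathway lists, coloured by the authors' call, with the number tested in brackets and a black bar at the median. The 9 tested genes spread from -2.75 to 4.75, while the Hsp90 list spans -0.67 to -0.03 with no call.

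Marker genes of cell types in which these genes are known were listed beside them. Over all tested genes 6.35% were called higher and 7.17% lower. Leptomeningeal and fibroblast markers, listed since Ptgds is abundant in leptomeninges, were called higher for 7 of 11 tested and lower for none. The summed FPKM of all 18 was 723.9 in STHdhQ7 and 3199 in STHdhQ111. The sum was carried by collagens and Bgn (Col1a1 451.9 and 1487 FPKM, Col1a2 11.5 and 532.6 FPKM, Bgn 22.1 and 500.2 FPKM). Of the 18, 6 were under 0.5 FPKM in both lines (Slc6a13, Slc22a6, Slc13a3, Slc47a1, Aldh1a2 and Cdh1). Slc22a6 was at 0 in both lines and Slc6a13 in STHdhQ7. The called genes of this list moved in the direction of Ptges, Ptgis and Hpgd and opposite to Ptgds, and their part in those values was not tested. Of 10 endothelial markers 7 were under 0.5 FPKM in both lines, Cldn5 was at 0 in both, and the sum was 8.83 and 2.77 FPKM. Flt1 was called lower (7.45 and 0.783 FPKM) and Tek higher (0.386 and 1.46 FPKM), and without Flt1 the sum was 1.38 and 1.99 FPKM. For microglia and leukocytes, 9 of 12 markers stayed under 0.5 FPKM in either line, and Tyrobp was at 0. Cd68 (26.5 and 72.4 FPKM) and Laptm5 (0.175 and 1.08 FPKM) were called higher and Tmem119 lower (22.3 and 6.28 FPKM). The sum was 49.3 and 80.4 FPKM, nearly all of it Cd68 and Tmem119, which moved in opposite directions. Of 11 oligodendrocyte lineage markers 8 were under 0.5 FPKM in both lines, Olig1 and Olig2 at 0, with Pdgfra called higher and sums of 30.0 and 26.4 FPKM. Of 9 astrocyte markers 5 were tested, and Aqp4 was at 0 in both lines. Sparcl1 was called higher (0.110 and 0.623 FPKM) and Aldoc lower (9.18 and 2.29 FPKM). The sums were 82.8 and 120.6 FPKM, most of it the uncalled Gja1 (59.7 and 103.1 FPKM). Of 15 neuronal and striatal markers found, 12 were under 0.5 FPKM in both lines, with Drd1a at 0 in both and Drd2 at 0 in STHdhQ7. Penk (2.85 and 6.49 FPKM) and Tubb3 (2.42 and 3.62 FPKM) were tested and not called, and Stmn2 was called lower (33.5 and 0.0563 FPKM). The sum of that list was 39.4 FPKM in STHdhQ7 and 10.6 FPKM in STHdhQ111, and without Stmn2 it was 5.90 and 10.6 FPKM. Of 6 tested neural progenitor markers 3 were lower (Sox2 72.0 and 0.561 FPKM, Nes 35.99 and 0.999 FPKM, Pax6 14.9 and 0.0213 FPKM) and Sox9 was higher. The list's sum was 3433 and 2504 FPKM, nearly all of it the uncalled Vim, and without Vim it was 130.4 and 21.9 FPKM.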

How the data were processed

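Messenger RNA was measured by sequencing in both lines. Per the submitters' processing notes, the tools were TopHat 1.4.0, Bowtie 0.12.7, Cufflinks 2.0.2 and Cuffdiff, on the mm9 build. The annotation and any options are not given here. Per the file headers, the deposited values are 1 FPKM per line, combined over replicates by the authors, with the authors' log2 fold change, statistic, p-value and a q-value. The library protocol in the labels does not describe strand marking, so antisense reads cannot be told apart. No locus of another gene in the table overlapped the 10 genes.

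The p-value in the deposited table matched the normal tail (two-sided) of the statistic to within 2.7e-06, so an implied standard error was taken as the size of the log2 fold change over the statistic. The q-value matched a Benjamini-Hochberg adjustment across the 12740 tested genes to within 2.2e-06. The statistic has the sign opposite to the fold change throughout, so directions were taken from the FPKM. No test was run here, and no replicate could be left out. The labels do not tie the replicates to separate cultures, and the spread behind the authors' p-values may be technical. Depth is unknown, since the low values of 1276 genes (under 0.05 FPKM in both lines) shared no common step, the fullest bin of 0.1 log2 units of their ratio holding 5.02%. Levels were compared on log2(FPKM + 0.5), which understates changes of low genes. Locus starts were raised by 1.

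The 10 genes and the lists were chosen with earlier results of these data known. Named from each of the 9 pathway lists were the genes called (at most 5 per direction) and the 3 uncalled genes with the highest mean FPKM. Named for each called gene were its 3 neighbours per side and the 3 genes nearest in level. Ptges, Ptgs1, Ptgs2 and Ptger4 for printed sequences, and Tbxas1, Hpgds, Ptger3, Egr1, the cytokines, single marker genes and Acsl6 for values, were chosen after their values were seen. Promoter windows came from RefSeq (GRCm38.p6) by symbol and were limited to the bases before the start. Words of 36 bases were searched in GENCODE M21 transcripts on both strands. The adjustment, the implied standard errors and the counting of calls were tested on simulated data, and the other steps were not. Python 3.11.15, numpy 2.4.6, pandas 2.3.3, scipy 1.17.1 and matplotlib 3.10.9 were used.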

Additional observations from a re-analysis of the deposited data

How the results depend on the processing

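No paired analysis was possible because the replicates were combined to 1 value per line. For the 10 genes, counts of calls stayed between 4 and 6 under a q of 0.01, a q of 0.1, an adjustment over tested genes with 1 FPKM or more in either line, and an added 4-fold minimum. Hpgd and Ptgds were lost at a q of 0.01 and the same 6 genes were called under the other settings. Of 40 alternative log2 ratios of single genes (other pseudocounts, recentring, scaling both lines to 1 sum) 39 moved by less than their implied standard error. None reversed, and Ptger4 was -4.29 with a pseudocount of 0.1 against -2.75. With that pseudocount Hpgd was 4.21 against 2.27 and Ptgds -3.77 against -2.37. These 2 shifts counted as small only beside wide implied standard errors of 2.46 and 1.62. Recentring subtracted the median of expressed genes, -0.05, from each ratio.

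Counts for lists are small and moved more. With a q of 0.01 the calls were 0 for other receptors, 1 for arachidonate release, 0 for activation and re-esterification, 2 for the leukotriene and epoxide branch, 0 for the stimulatory G protein list and 2 for the regulators. With the 4-fold minimum they were 0 for other synthases, 1 for carriers and inactivation, 0 for other receptors, 0 for arachidonate release, 0 for activation and re-esterification, 1 for the leukotriene and epoxide branch, 0 for the stimulatory G protein list and 1 for the regulators. With the 1 FPKM filter they were 0 for activation and re-esterification and 0 for the stimulatory G protein list. With a q of 0.1 activation and re-esterification had 2. Counts not given here stayed within 1.5 times of those reported. These rules have fewer or more genes called by construction. The medians of all 10 lists moved by less than the median implied standard error of their genes.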

Other observations

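Genes nearest to the called genes in level were found by the distance between log2(FPKM + 0.5) values over the 2 lines. Only tested genes were searched, and provisional symbols and small RNAs were left out. Nearest to Ptges were Ifi27l2a (1.38 and 46.1 FPKM in STHdhQ7 and STHdhQ111, distance 0.12), the chemokine gene Cxcl10 (1.59 and 45.5 FPKM, 0.21) and Apol9a (1.37 and 42.7 FPKM, 0.23). Nearest to Ptgis were the metalloproteinase Adam8 (2.37 and 20.6 FPKM, distance 0.11), Def6 (2.53 and 17.5 FPKM, 0.16) and Card10 (2.86 and 23.1 FPKM, 0.26). Nearest to Ptgs1 were the integrin chain Itgb4 (31.5 and 4.95 FPKM, distance 0.12), Rgl1 (38.4 and 5.03 FPKM, 0.20) and the replication factor Cdc45 (32.1 and 6.15 FPKM, 0.22). Nearest to Ptgds were the growth factor signalling inhibitor Spry4 (2.41 and 0.0927 FPKM, distance 0.08), the retinoic acid hydroxylase Cyp26a1 (2.60 and 0.0606 FPKM, 0.09) and Adamtsl2 (2.40 and 0.0708 FPKM, 0.11). Nearest to Ptger4 were Wfdc2 (3.39 and 0.0827 FPKM, distance 0.01), Khdrbs3 (3.49 and 0.0533 FPKM, 0.08) and Zbtb7c (3.62 and 0.0866 FPKM, 0.09). Nearest to Hpgd were the glutamate transporter Slc1a6 (0.0163 and 2.00 FPKM, distance 0.03), Pisd-ps1 (0.00173 and 1.97 FPKM, 0.03) and Tceal1 (0 and 1.89 FPKM, 0.05). With 2 values per gene, likeness in level covers these 2 lines only.

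Acsl6, a fatty acid activating enzyme of brain, had 2.13 FPKM in STHdhQ7 against 0.0138 FPKM in STHdhQ111 without being called. For Acsl6 the authors' deposited table gave -7.27 on the log2 scale (implied standard error 3.74, q = 0.242). Pisd-ps1 and Tceal1, like the called Slc1a6 among the genes nearest in level to Hpgd, had a q of 0.976 and 0.0541 in the authors' deposited table. Genes near Hpgd in level were thus called or not at similar FPKM.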
